A study of Mus musculus with 7 samples.

Results

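The genes described here carry dietary fat through the absorptive cell of the small intestine. They are 10 genes on 11 array probes, out of 20887 named genes on 27509 probes with a symbol (of 55681 in all): Cd36, Fabp1, Fabp2, Mogat2, Dgat1, Mttp, Apob, Apoa1, Apoa4 and Apoc3. They were chosen by symbol, and a probe was given its symbol through the RefSeq accession in the scanner files. In intestinal epithelial cells of mice with induced deletion of Mob1a and Mob1b, none of the 10 differed detectably from control at day 4 or day 7 after tamoxifen. The share of all features called was 0.0323% at day 4 and 7.36% at day 7. On the single array of day 10, 9 of the 10 were called lower than in the controls, by between 4.83-fold (Apoa1) and 129-fold (Apoc3). Of all features tested, 17.5% were called lower there. Apob was the member that did not pass the test there.

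Fatty acids and monoacylglycerol from digested fat enter the enterocyte at its brush border and are carried in the cytosol by fatty acid binding proteins. Acyltransferases join them again into triglyceride at the endoplasmic reticulum, where a transfer protein loads the triglyceride onto apolipoprotein B. The particle takes up smaller apolipoproteins, passes through the Golgi and leaves the cell towards the lymph as a chylomicron.

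Mob1a and Mob1b encode adaptors of the Hippo pathway, through which the Lats kinases are switched on. Male C57BL/6J mice (backcrossed for over 6 generations) aged 8 weeks received tamoxifen at 80 mg/kg per day for 2 days by intraperitoneal injection, and epithelial cells of the proximal intestine were released with 2 mM EDTA. Total RNA was hybridised to 1-colour arrays, and the comparison asks how expression moves with time after deletion. Control mice (2 arrays) were Mob1a f/f; Mob1b f/f without Cre. Knockout mice had both floxed genes and the transgene Villin-creERT2, with 2 arrays at day 4, 2 at day 7 and 1 at day 10. The Villin promoter drives CreERT2, a Cre recombinase activated by tamoxifen, in the intestinal epithelium. All groups received tamoxifen, but only the knockouts carried CreERT2, so activity of the recombinase and loss of the genes cannot be told apart. The labels place the controls 7 days after tamoxifen, whereas the design text names a day 0 and no day 10, so the day of the controls is not settled. The replicates were different mice.

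All 7 arrays lay on 1 slide, with the control and day 4 arrays in its first row and the day 7 and day 10 arrays in its second, so that row cannot be told apart from the differences of day 7 or day 10 from control. The share of probes well above background ran from 45.2% to 51.3%, and no saturated spots were flagged. An array's 75th percentile of signal was 278 to 339 on the arrays of control, day 4 and day 7 and 470 on the day 10 array. The Mob1b probe differed from control by -1.41 ± 0.22 (SE) on the log2 scale at day 4, which was not called (adjusted p = 0.180), and was lower by 1.56 ± 0.22 at day 7 (adjusted p = 0.0133). On the day 10 array the level of this probe, as defined below, was -2.44, against -0.72 and -0.92 in the controls. The Mob1a probe was not called at day 4 (-0.25 ± 0.24, adjusted p = 0.963) or day 7 (0.27 ± 0.24, adjusted p = 0.554), and was higher by 1.62 ± 0.30 at day 10 (adjusted p = 0.0104), so that it did not show the deletion. The Mob1a probe was dim, being well above background on 5 of the 7 arrays. Its levels, as defined below, were -4.04 to -3.19 up to day 7. The lowest level of any probe well above background was between -4.67 and -3.90 on those arrays, which left little room for a fall. Where these probes lie relative to the deleted exons was not analysed here. The scanner software multiplied spot signals by a factor to even out the signal across the array. Over spots with a signal above 5000, its 5th to 95th percentile was 0.864 to 1.16 on control replicate 2 and wider, 0.794 to 1.36, on day 7 replicate 1. One control array stood apart, replicate 1, with 0.688 to 2.74. Without that array the day 10 differences of the members ran from -7.01 (Apoc3) to -0.32 (Apob) and the same 9 were called. The differences it moved most are given with and without it.

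A level below is the log2 of the processed spot signal minus the array's 75th percentile. A difference is a difference of mean levels, with its standard error, tested with limma over 24783 features and called at an adjusted p under 0.05. The day 10 group holds 1 mouse, so its error is borrowed from the other groups, and mouse and day cannot be told apart there. In RNA of a whole cell preparation, fewer cells of a type and less RNA per cell cannot be told apart.

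The promoters of several members are shown because 9 genes were called lower on the same array while Apob was not. The RefSeq table (GRCm38.p6) held 7 of the 10 members, and the 250 bases before the annotated start were searched on both strands for 3 motifs that share no overlapping match here. Part of an HNF4 motif, AAAGTCC, occurred in 3.58% of all 32851 promoters in the table. A motif of the GATA factors, searched as AGATAA, occurred in 9.99%. The TATA box, searched as TATAAA, occurred in 12.4%. A match was found in Fabp1, which was low at day 10, and in Apob, which was not called, both for TATAAA. The capitals below mark it, at positions -30 to -25 in Fabp1 and -60 to -55 in Apob. The sequences, each 5′ to 3′ on the + strand, lie at chr6:71199629-71199878 (Fabp1), chr12:7977427-7977676 (Apob), chr9:46228380-46228629 (Apoa1) and chr9:46240594-46240843 (Apoa4). Apoa1 and Apoa4, which lie in the apolipoprotein cluster of chromosome 9, are also printed and held no exact match to the 3 motifs as searched. Only these exact letters were searched, so a binding site with other letters would be missed.
Fabp1: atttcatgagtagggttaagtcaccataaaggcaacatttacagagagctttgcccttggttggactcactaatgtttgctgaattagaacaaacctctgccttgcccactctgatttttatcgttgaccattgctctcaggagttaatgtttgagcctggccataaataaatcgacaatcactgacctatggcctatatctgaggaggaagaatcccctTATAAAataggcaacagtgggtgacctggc
Apob: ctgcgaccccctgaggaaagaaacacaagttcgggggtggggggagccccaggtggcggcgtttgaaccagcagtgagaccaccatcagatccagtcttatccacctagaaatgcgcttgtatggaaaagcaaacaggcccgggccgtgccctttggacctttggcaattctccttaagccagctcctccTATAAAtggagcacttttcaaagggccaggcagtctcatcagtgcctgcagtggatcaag
Apoa1: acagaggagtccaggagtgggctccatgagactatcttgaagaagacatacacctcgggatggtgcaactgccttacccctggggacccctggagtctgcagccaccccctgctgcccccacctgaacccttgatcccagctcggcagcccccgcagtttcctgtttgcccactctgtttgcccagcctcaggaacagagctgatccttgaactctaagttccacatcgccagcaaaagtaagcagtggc
Apoa4: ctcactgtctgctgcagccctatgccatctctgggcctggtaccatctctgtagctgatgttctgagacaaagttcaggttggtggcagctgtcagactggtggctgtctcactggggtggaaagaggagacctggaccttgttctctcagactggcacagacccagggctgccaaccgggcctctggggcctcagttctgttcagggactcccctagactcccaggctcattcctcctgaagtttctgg

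**Figure D1:**
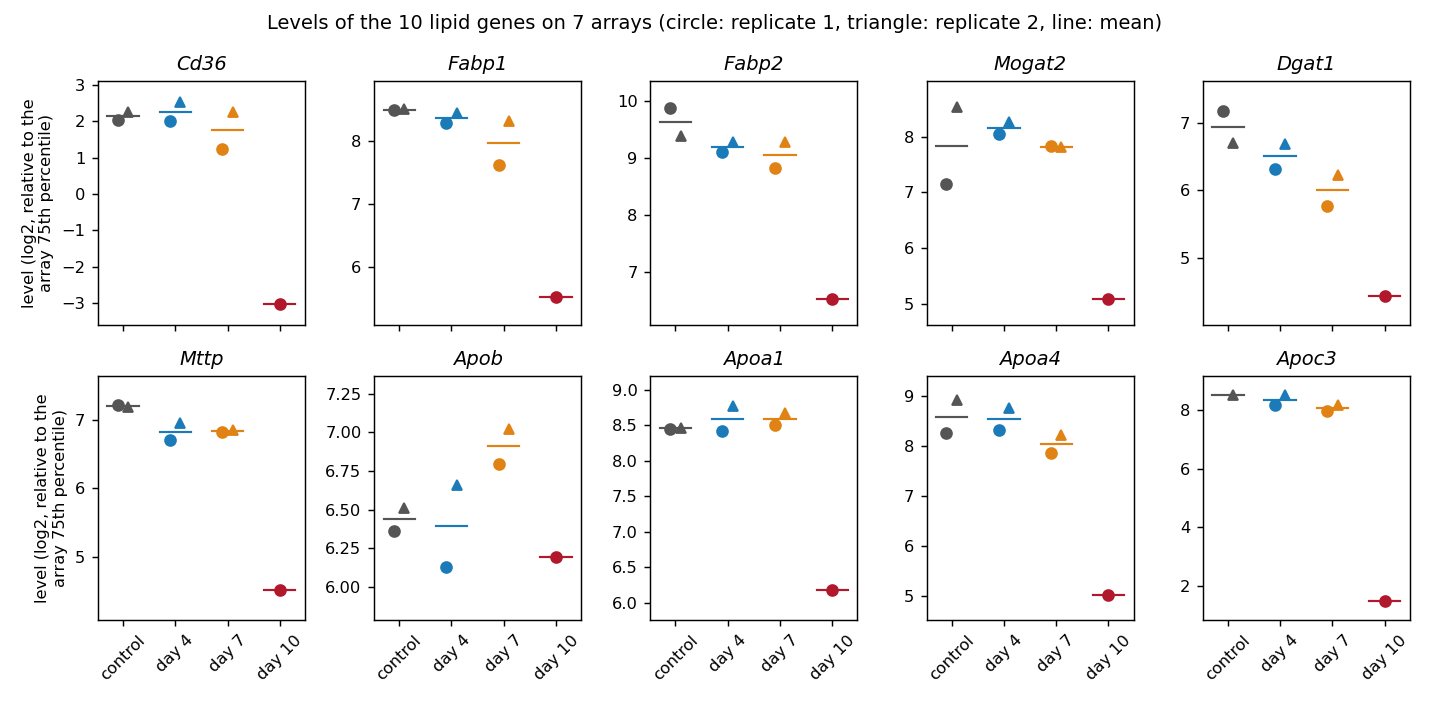
Level of each of the 10 lipid genes on the 7 arrays, as log2 signal relative to the array's 75th percentile, with a separate vertical axis for each gene. Circles are replicate 1, triangles replicate 2 and lines group means; Apoc3 has 1 control value. The day 10 array lies below all other arrays for 9 genes, and for Apob it lies at 6.19, between the 2 day 4 arrays.

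Cd36, a membrane receptor for long-chain fatty acids, had levels of 2.04 and 2.26 in the controls, 2.01 and 2.53 at day 4, 1.25 and 2.25 at day 7 and -3.03 at day 10. The arrays up to day 7 overlapped, and the day 10 array lay below all of them. Its difference from control was -5.18 ± 0.47 at day 10 (36.3-fold lower, adjusted p = 8.8e-04), against 0.12 ± 0.38 at day 4 and -0.40 ± 0.38 at day 7. The lower of the 2 day 7 arrays was replicate 1, without which the day 7 difference was 0.10.

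Fabp1, the liver-type fatty acid binding protein, which is also abundant in enterocytes, stood at 8.49 and 8.50 in the controls, 8.29 and 8.45 at day 4, 7.63 and 8.32 at day 7 and 5.53 at day 10. Every knockout array was below both controls. The difference was -0.13 ± 0.28 at day 4, -0.52 ± 0.28 at day 7 (adjusted p = 0.340) and -2.96 ± 0.35 at day 10 (7.79-fold lower, adjusted p = 0.0021). The day 7 value was -0.18 without day 7 replicate 1 and -0.87 without day 7 replicate 2. Fabp2, the intestinal-type binding protein, had levels of 9.89 and 9.39 in the controls, 9.12 and 9.28 at day 4, 8.83 and 9.29 at day 7 and 6.53 at day 10. Here too each knockout array lay below both controls. It differed by -0.44 ± 0.28 at day 4, by -0.58 ± 0.28 at day 7 (adjusted p = 0.291) and by -3.10 ± 0.34 at day 10 (8.58-fold lower, adjusted p = 0.0017). Its day 7 value lay between -0.83 (without control replicate 2) and -0.33 (without control replicate 1) when 1 array was left out, and its day 10 value was -2.85 without control replicate 1.

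Mogat2, the acyltransferase that adds a fatty acid to monoacylglycerol, stood at 7.14 and 8.52 in the controls, 8.04 and 8.26 at day 4, 7.83 and 7.81 at day 7 and 5.09 at day 10. The 2 controls lay farther apart than any other pair of this gene, and the day 4 and day 7 arrays lay between them. The lower control is replicate 1, where the spot's signal was multiplied by 1.52. At day 10 Mogat2 was lower by 2.74 ± 0.55 on the log2 scale (adjusted p = 0.0135), a value that was -3.43 without control replicate 1 and -2.05 without control replicate 2. Its day 7 difference was -0.01 ± 0.45, and went to -0.70 and 0.68 when the same arrays were left out, so that neither its size nor its direction was settled at day 7.

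Dgat1, which makes triglyceride from diacylglycerol, had levels of 7.18 and 6.70 in the controls, 6.32 and 6.68 at day 4, 5.77 and 6.23 at day 7 and 4.44 at day 10. No group overlapped the one before it, each being lower. The difference was -0.44 ± 0.29 at day 4 and -0.93 ± 0.29 at day 7, where it was the one member with an unadjusted p under 0.05 (adjusted p = 0.125), as had 22.7% of all features. At day 10 it was -2.49 ± 0.36 (5.63-fold lower, adjusted p = 0.0042).

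Mttp, the large subunit of the microsomal triglyceride transfer protein that lipidates apolipoprotein B, stood at 7.21 and 7.18 in the controls, 6.70 and 6.95 at day 4, 6.82 and 6.85 at day 7 and 4.51 at day 10. The day 4 and day 7 arrays were all below the controls and lay among each other. The difference was -0.37 ± 0.21 at day 4, -0.36 ± 0.21 at day 7 (adjusted p = 0.375) and -2.68 ± 0.26 at day 10 (6.40-fold lower, adjusted p = 0.0011).

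Apob, the structural protein of the chylomicron, had levels of 6.36 and 6.51 in the controls, 6.13 and 6.66 at day 4, 6.80 and 7.02 at day 7 and 6.19 at day 10. Both day 7 arrays were above both controls, and the day 10 array was below both controls but above 1 of the day 4 arrays. It differed by 0.47 ± 0.26 at day 7 (adjusted p = 0.348) and by -0.25 ± 0.32 at day 10 (95% interval -1.02 to 0.53, adjusted p = 0.607). That interval does not reach the smallest called difference of the others, -2.27 for Apoa1, but the difference between Apob and the other members was not itself tested. A second Apob probe had levels of 5.79 and 5.73 in the controls, 5.63 and 6.47 at day 4, 6.35 and 6.51 at day 7 and 5.29 at day 10. Its day 7 difference was 0.67 ± 0.31 (adjusted p = 0.270) and its day 10 difference -0.47 ± 0.38 (adjusted p = 0.404), so that neither was called.

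Apoa1, the main protein of high-density lipoprotein and also a chylomicron protein, stood at 8.45 and 8.47 in the controls, 8.42 and 8.77 at day 4, 8.50 and 8.68 at day 7 and 6.18 at day 10. Control, day 4 and day 7 lay close together. The difference was 0.13 ± 0.23 at day 7 (95% interval -0.42 to 0.68) and -2.27 ± 0.28 at day 10 (4.83-fold lower, adjusted p = 0.0024). Apoa1 has 10 spots on each array, which show the technical spread directly. Their log2 SD was 0.27 on control replicate 1 and 0.16 on day 7 replicate 1, against 0.03 to 0.05 on the other 5 arrays. On control replicate 1 the spots ran from 28030 to 112804 before the spatial correction and from 77926 to 126450 after it, while the day 10 spots ran from 29637 to 37924 before it and from 33277 to 34909 after it. All 10 corrected day 10 spots were below every corrected spot of the other arrays. Before correction 3 of the 10 spots of control replicate 1 lay no higher than the highest day 10 spot. None of the spots of the other 5 arrays did. These spot signals are not scaled by array, whereas a level is taken relative to the array's 75th percentile. That percentile was 278 on control replicate 1 and 470 on the day 10 array, so the overlap is one of unscaled signals.

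**Figure D2:**
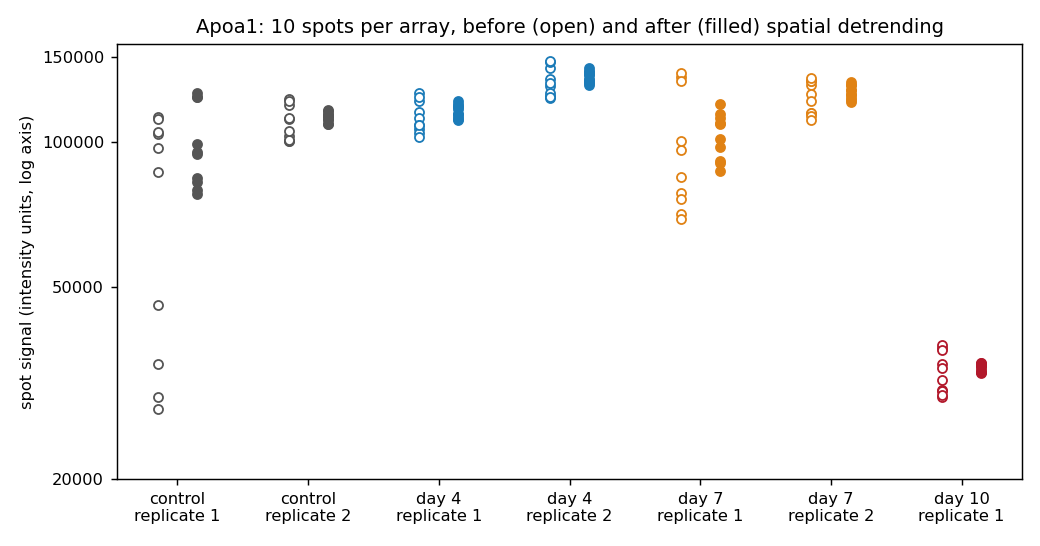
Signal of the 10 Apoa1 spots on each array in the scanner's intensity units on a log axis, before (open) and after (filled) the scanner's spatial correction. The signals are not scaled by array. Control replicate 1 spreads most before correction (28030 to 112804), where 3 of its spots overlap the day 10 spots (29637 to 37924). After correction the day 10 spots (33277 to 34909) lie below those of all other arrays.

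Apoa4, an apolipoprotein made by enterocytes during fat absorption, had levels of 8.25 and 8.91 in the controls, 8.32 and 8.76 at day 4, 7.85 and 8.22 at day 7 and 5.02 at day 10. Both day 7 arrays were below both controls, by little for the lower control. That lower control is replicate 1, where the spot was multiplied by 2.99. The difference was -0.54 ± 0.32 at day 7 (adjusted p = 0.372) and -3.55 ± 0.39 at day 10 (11.7-fold lower, adjusted p = 0.0017). Without control replicate 1 these were -0.87 and -3.88, and without control replicate 2 they were -0.21 and -3.23, with the day 7 value not called and the day 10 value called in both. The day 7 value was -0.36 without day 7 replicate 1.

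Apoc3, which inhibits lipoprotein lipase, had a level of 8.49 on the 1 control array where its spot was kept, since the scanner marked the spot on control replicate 1 as an outlier. Its levels were 8.17 and 8.52 at day 4, 7.98 and 8.17 at day 7 and 1.49 at day 10. The day 10 value was the farthest from its group of controls of any member. The difference was -0.42 ± 0.31 at day 7 (adjusted p = 0.479) and -7.01 ± 0.35 at day 10 (129-fold lower, adjusted p = 3.7e-04), and with the marked spot kept it was -7.05.

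**Figure D3:**
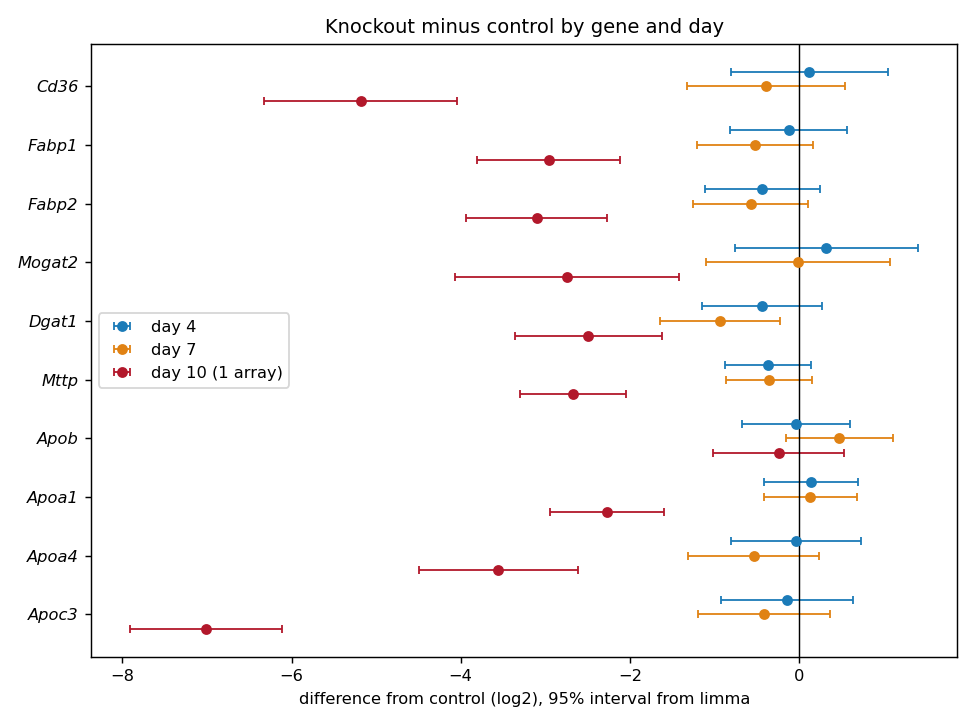
Difference of each lipid gene from control on the log2 scale at day 4, day 7 and day 10, with 95% intervals from limma. At day 10 the intervals of 9 genes lie wholly below 0, and that of Apob (-1.02 to 0.53) spans it.

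At day 4 none of the 10 was called (differences from -0.44 for Dgat1 to 0.32 for Mogat2), and none had an unadjusted p under 0.05. In the same limma comparison 0.0323% of all features were called and 1531 had an unadjusted p under 0.05. Both day 4 arrays lay on one side of both controls for 4 of the 10, against 37.4% of all features. At day 7 none was called, where 7.36% of all features were, and the median difference was -0.41 over the members and -0.06 over all features. Both day 7 arrays lay on one side of the controls for 8 of the 10 (of the 1 control kept for Apoc3), lower for 6 and higher for Apob and Apoa1, which was the case for 54% of all features and, lower, for 31.1%. Between day 4 and day 7 none was called either, against 2.81% of all features, with differences from -0.52 for Cd36 to 0.51 for Apob.

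At day 10, 9 of 10 members were called lower and none higher, while 28.3% of all features were called, 17.5% lower and 10.7% higher. The array lay below the controls kept for all 10 members, Apob included, and for 49.8% of all features. The median difference was -2.85 over the members and -0.13 over all features. Of all calls, 62.1% were lower, a share that became 50.8% when arrays were scaled to the probes above background on all of them, with 9 members still called. The difference of Apoc3 lay at the 0.359th and that of Cd36 at the 1.16th percentile of all features, while the other 7 called members lay between 3.11 and 7.47 and Apob at 45.2. From day 7 to day 10, 9 of 10 members were called lower, where 11% of all features were called lower. That count was 7 without either day 4 array or day 7 replicate 2, where Dgat1 and Mogat2 were no longer called, and 8 without day 7 replicate 1, where Mogat2 was not. Both comparisons rest on the same day 10 array. The day 7 to day 10 step was -4.78 for Cd36, -6.59 for Apoc3 and between -3.01 (Apoa4) and -1.56 (Dgat1) for the other 7. For Apob it was -0.72 ± 0.32 (adjusted p = 0.184).

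The genes whose levels most resembled a member over the arrays were taken from 11690 candidates measured above background on every array. With Cd36 these were Asah2 (Pearson r = 0.997) and Prr15, with Fabp1 Tonsl and Bst1, and with Fabp2 Prrc1 and Atp5b. Mogat2 was most like Bcorl1 and Mdh1, Dgat1 most like Mtarc2 and Spef1, and Mttp most like Chdh and Mdh2. Apoa1 paired with Cndp2 and Tubal3, Apoa4 with Cda (r = 0.999) and Acad11, and Apoc3, over 6 arrays, with H2-T3 and 2010106E10Rik. The nearest genes to Apob were Efna3 (r = 0.984) and Lysmd1 (r = 0.981), which differed from control at day 10 by -0.12 and -0.27. All these correlations share the 7 arrays, and 1 array, day 10, stands far from the rest for most of the genes. Without it the correlations of the same pairs ran from 0.863 (Apoa1 with Tubal3) to 0.993 (Apoa4 with Cda). The pairs were picked as the highest among 11690 candidates on arrays that include these. High values without day 10 therefore follow in part from that choice and are no separate test.

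A wider set of 49 genes of lipid handling, chosen for their known roles, gave 45 features that could be tested. None was called at day 4, and 4 were called lower and none higher at day 7, where 4.32% of all features were called lower. That count rests on single arrays: it was 0 without control replicate 1 or day 7 replicate 1, 1 without control replicate 2 or either day 4 array and 3 without day 7 replicate 2. The 4 were Scarb1, a lipoprotein receptor of the cell surface (-2.48 ± 0.40, adjusted p = 0.0194), Apoc1 (-1.98 ± 0.35, adjusted p = 0.0252), Mgll, which splits monoacylglycerol (-1.90 ± 0.40, adjusted p = 0.0435), and Nr1h3, the sterol-sensing nuclear receptor LXR alpha (-1.43 ± 0.24, adjusted p = 0.0220). Scarb1 stood at 2.52 and 3.20 in the controls, 1.61 and 2.17 at day 4, -0.04 and 0.80 at day 7 and 0.20 at day 10, and without control replicate 1 its day 7 difference was -2.82 (adjusted p = 0.0523). For the other 3 that difference without control replicate 1 was -1.82 (Apoc1), -1.42 (Mgll) and -1.48 (Nr1h3). Apoc1 was not well above background on day 7 replicate 1, so the size of its difference is uncertain. Nr1h3 stood at 4.64 and 4.74, then 4.08 and 4.43, then 3.10 and 3.41, and at -0.36 on the day 10 array.

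At day 10, 22 of the 45 were called lower and 2 higher, with a median difference of -1.30, while 17.5% of all features were called lower and 10.7% higher. Without control replicate 1, 15 were lower and 1 higher. The counts for each function below are also of called genes and are to be read against the same shares. In fatty acid uptake and activation 5 of 7 were lower, among them Slc27a2, a fatty acid transporter (-6.69 ± 0.32), and Acsl1, which activates fatty acids with coenzyme A (-2.18 ± 0.33). In glycerolipid synthesis 3 of 8 were lower, including Dgat2 (-1.38 ± 0.36, adjusted p = 0.0336), and Gpat4 was higher (0.89 ± 0.25, adjusted p = 0.0446). In particle assembly and export 5 of 10 were lower, including Sar1b, the small GTPase that carries chylomicrons out of the endoplasmic reticulum (-2.02 ± 0.29), P4hb, the partner subunit of the transfer protein (-1.37 ± 0.31), and Vti1a, a transport SNARE (-1.22 ± 0.25). Of 4 other apolipoproteins Apoa2 was lower (-1.70 ± 0.42, adjusted p = 0.0289), whereas Apoc1 did not pass at day 10 (-1.31 ± 0.42, adjusted p = 0.0661). Apoe, named after its values were seen, was the other gene that was higher, with levels of 0.73 to 1.15 on the first 6 arrays and 3.73 at day 10 (2.77 ± 0.28, adjusted p = 0.0012). In lipid droplets and lipolysis 3 of 7 were lower, including Mgll (-2.80 ± 0.49), and Plin2, a lipid droplet coat protein, had a value of 0.75 ± 0.38 that was not called. Of 9 transcription factors 5 were lower, including Nr1h3 (-5.05 ± 0.30), Ppara, the fatty-acid-activated nuclear receptor (-4.81 ± 0.37), and Creb3l3 (-1.63 ± 0.42). Hnf4g (-3.05 ± 0.25) and Nr5a2 (-5.05 ± 0.68), named here after their values were seen, were also among them. Hnf4a, an enterocyte regulator named here after its values were seen, differed by -0.31 ± 0.28 (adjusted p = 0.469).

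**Figure D4:**
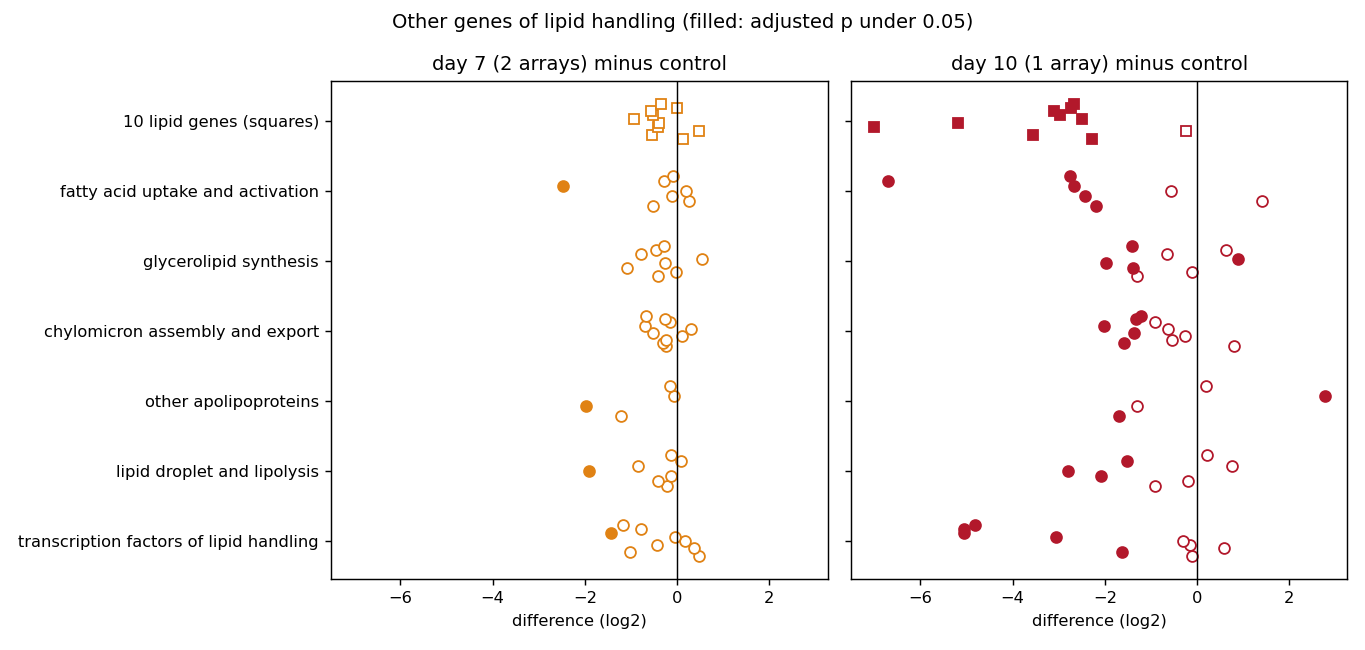
Difference from control on the log2 scale of the 45 other lipid handling genes by function (circles) and of the 10 lipid genes (squares), at day 7 and day 10. Filled symbols passed the test at adjusted p under 0.05: 4 other genes at day 7, and 24 other genes and 9 of the 10 lipid genes at day 10.

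The labelled tissue was checked against marker genes, and the markers of other cells moved on the same array as the lipid genes. Counts of markers at day 10 are of called markers, to be read against the 17.5% of all features called lower there and the 10.7% called higher. At day 10, 7 of 9 enterocyte markers were lower and none higher, and their summed linear level was 1115, against 2768 to 3163 in the controls. Lct, the brush border lactase, was not well above background there and was at least 7351-fold lower, Sis, the sucrase-isomaltase, differed by -5.82 ± 0.26 and Cdhr2 by -0.73 ± 0.29 (adjusted p = 0.108). By contrast 3 of 7 pan-epithelial markers were higher, namely Krt18 (1.74 ± 0.26), Cdh1 (1.31 ± 0.25) and Krt19 (1.02 ± 0.30), with a summed level of 1606 against 970 to 1099. All 4 T cell markers tested were lower, with a summed level of 10.0 against 178 to 207, and 3 of 5 macrophage markers were higher, with 19.4 against 3.35 to 4.40. The T cell sum was mostly that of the brightest marker, Gzma, with levels of 7.59 and 7.38 in the controls and 3.01 at day 10. The macrophage sum at day 10 was mostly that of Csf1r, named after its values were seen (level 3.99). All 3 hepatocyte markers tested were lower (0.535 against 5.66 to 6.68), though Alb and Ttr were not well above background on the day 10 array. Alb was well above background on only 2 of the 7 arrays, and not on control replicate 1. The control sums were mostly that of Serpina1a (levels 2.48 and 2.15). Ttr was already lower at day 7, where it was not well above background on replicate 1. None of the 4 adipocyte markers was above background on enough arrays to be tested, their sum being 0.0877 against 0.0645 to 0.0861. Villus tip markers gave 1 higher (Egfr, 3.77 ± 0.27) and 1 lower of 5, and distal markers 1 higher (Slc10a2, the ileal bile acid transporter, 5.17 ± 0.56) and 2 lower of 4. Of these 2, Fabp6 was not well above background at day 10 and at least 3.53-fold lower. The lists for endothelial, B and plasma, and smooth muscle cells gave no call, and 1 of 3 fibroblast markers was lower. The part of these cell types in the day 10 values of the lipid genes was not tested. At day 7 the marker calls were Ttr and the fibroblast marker Dcn, which was not well above background there and at least 3.26-fold lower (adjusted p = 0.0297). No enterocyte, pan-epithelial, T cell or macrophage marker was called at day 7.

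**Figure D5:**
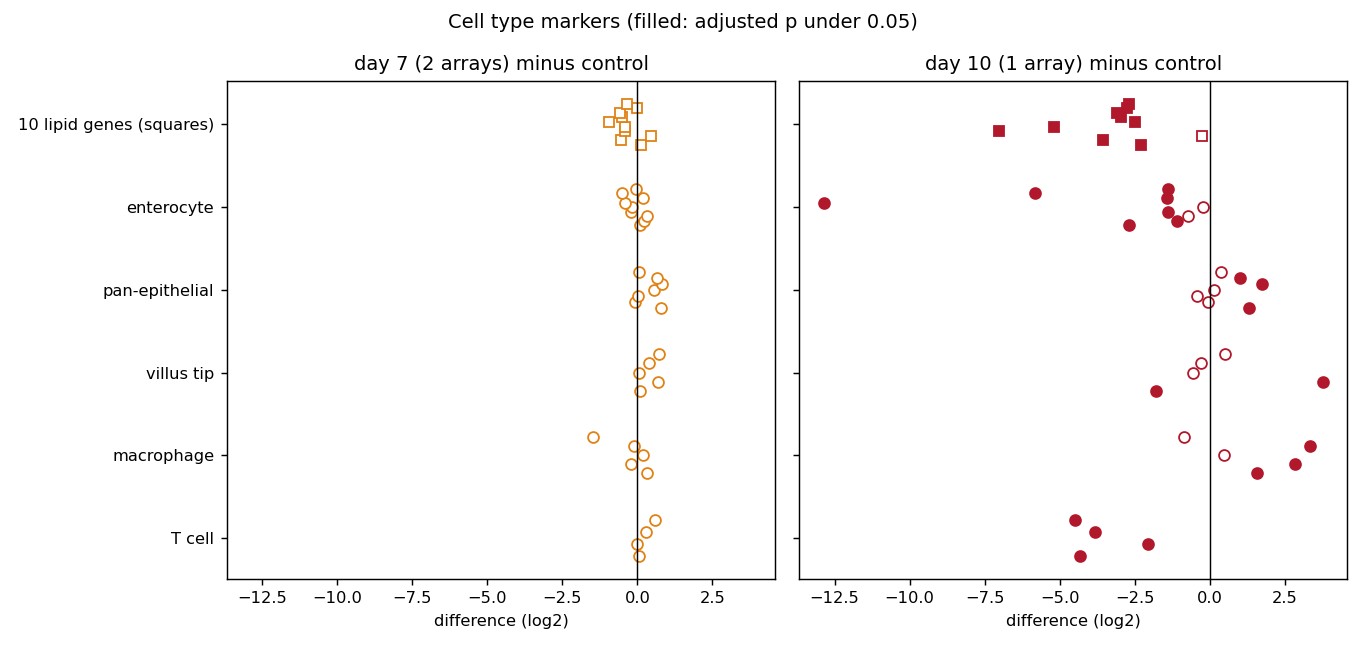
Difference from control on the log2 scale of markers of 5 cell types (circles) and of the 10 lipid genes (squares), at day 7 and day 10. Filled symbols passed the test: on the day 10 array 7 of 9 enterocyte and 4 of 4 T cell markers were lower and 3 of 5 macrophage and 3 of 7 pan-epithelial markers higher. Lct (near -12.9) was not well above background at day 10, so its symbol marks a bound.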

How the data were processed

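The intensity values were deposited by the authors as scanner output (Agilent design 028005, Feature Extraction 11.5.1.1, per the file headers). Its processed signal is background-subtracted and corrected for spatial trend. The file headers also give the flags used here (well above background, saturated, outlier). The deposited value table equals the processed signal within 0.1% for 100% of single-spot probes on each array, with column medians of 15.2 to 30.5, so it is linear and not centred. It served as an alternative.

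Spots marked as outliers (115 to 274 per array) were left out, and a probe's other spots were averaged as log2 values. The files have no gene name column, so accessions were named through a RefSeq table of GRCm38.p6, giving 1 symbol to 27509 probes and none to 28172. The brightest probe stood for each gene. Tests covered features detected above background on 2 or more of 7 arrays (24783, of which 13815 had a symbol). limma 3.58.1 in R 4.3.3 fitted group means to all 7 arrays together (lmFit, eBayes, 2-sided), with Benjamini-Hochberg adjustment over all features. Features with a missing array (21) were fitted on the others. The script was tested on simulated data. Figures used matplotlib 3.10.9.

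The number of arrays limits the precision. The members, lists and alternatives were chosen with earlier results of these data known. The text names the 10 members, Mob1a, Mob1b, up to 3 genes of a list with the smallest p at day 7, and the 2 genes most like each member; exceptions are marked. The normexp alternative used the median signal because the files hold no mean signal.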

Additional observations from a re-analysis of the deposited data

Results flagged for a closer look

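Between day 7 and day 10, 9 lipid genes differed past the threshold of the limma test of the step itself, as did 18.2% of all features. There was no control at day 10, and the step compares 1 mouse with 2, so mouse and day cannot be told apart. The steps on the log2 scale were -4.78 for Cd36 (adjusted p = 0.0019), -2.44 for Fabp1 (adjusted p = 0.0064), -2.53 for Fabp2 (adjusted p = 0.0055) and -2.73 for Mogat2 (adjusted p = 0.0204). They were -1.56 for Dgat1 (adjusted p = 0.0314), -2.32 for Mttp (adjusted p = 0.0028), -2.40 for Apoa1 (adjusted p = 0.0033), -3.01 for Apoa4 (adjusted p = 0.0046) and -6.59 for Apoc3 (adjusted p = 7.6e-04).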

How the results depend on the processing

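The count of lipid genes called stayed at 0 at day 4, at day 7 and for day 7 minus day 4 under every alternative run. It stayed at 9 at day 10 except where Apoc3 could not be tested (8 of 9, with only probes above background on all arrays or without control replicate 2), and for day 10 minus day 7 it was 7 to 9. Of 820 single-gene comparisons with an alternative, 783 kept their direction and call and 10 lost the call, all for Dgat1 or Mogat2 in day 10 minus day 7, where the adjusted p reached 0.0821 for Dgat1 and 0.0624 for Mogat2. In 27 an uncalled difference changed sign, and no called one did. With normexp these were -0.076 for Cd36 and 0.64 for Apoa4 at day 4, 0.29 for Mogat2 at day 7 and -0.25 for Mttp in day 7 minus day 4. Quantile normalization gave 0.044 for Apob and 0.087 for Apoa4 at day 4, 0.23 for Mogat2 at day 7, 0.20 for Apob at day 10 and 0.069 for Apoa1 in day 7 minus day 4. Scaling to the probes above background on all arrays gave 0.0061 for Mogat2 at day 7 and -0.0050 for Mttp in day 7 minus day 4, and the mean over the probes of a gene gave 0.12 for Apob at day 4. Leaving out 1 array at a time gave ranges at day 4 of -0.37 to 1.01 for Mogat2, -0.31 to 0.22 for Apob, -0.37 to 0.29 for Apoa4, -0.32 to 0.025 for Apoc3, -0.14 to 0.38 for Cd36 and -0.039 to 0.31 for Apoa1. At day 7 they were -0.70 to 0.68 for Mogat2 and -0.90 to 0.10 for Cd36, and for day 7 minus day 4 they were -0.37 to 0.085 for Fabp2, -0.11 to 0.14 for Mttp and -0.18 to 0.17 for Apoa1. The cause was not tested. Counts over all features moved more. At day 4 the 8 calls became 3 with normexp, 4 with scaling to the probes above background on all arrays, 2 without the filter on dim probes, 24 with only probes above background on all arrays, 4 with the mean over probes, 2 with the replicate block, 3 with only the 2 groups compared and 1 to 8 with an array left out. At day 7 the 1825 calls became 967 without the filter, 1038 with only the 2 groups compared and 535 to 2101 with an array left out (535 without control replicate 1, 1011 without control replicate 2, 831 without day 7 replicate 1, 1038 without either day 4 array). At day 10 the 7003 calls became 4624 without control replicate 1, and at most 7556 with another array left out. For day 7 minus day 4 the 696 calls became 413 with normexp, 123 without the filter, 414 with only the 2 groups compared and 0 to 1101 with an array left out (0 without day 4 replicate 2, 39 without day 4 replicate 1, 236 without day 7 replicate 1, 413 and 414 without control replicates 1 and 2, 1101 without day 7 replicate 2). The share of calls that were higher at day 10 was 37.9%, and 49.2% with scaling to the probes above background on all arrays, which moved the median of all features from -0.13 to 0.08 and that of the members from -2.85 to -2.64. The labels do not say that replicate numbers pair mice, so the numbers were not taken as pairs. Same-numbered arrays deviated together with r = 0.0083 (control and day 4), 0.0857 (control and day 7) and 0.250 (day 4 and day 7). A minimum of 0.1 was set, which only the last passed. With the replicate block 8 members were called in day 10 minus day 7. Keeping outlier spots, and leaving out arrays for the wider set of lipid handling genes, were alternatives chosen after seeing the data.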
